A study of Mus musculus with 12 samples.

Results

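Before a ribosome can translate, its RNA and protein parts are put together in the nucleolus by a large set of assembly factors, and 58 genes for such factors are described here in mouse embryonic fibroblasts (MEFs) after doxorubicin. The genes came from a list of symbols, and every row of the deposited expression table with one of these symbols was taken. All 58 were among the 16425 genes of the table, and all 58 were among the 14440 that passed a filter on low values (at least 0.5 CPM in at least 3 libraries). CPM are reads per gene scaled to library size. The table writes the symbols in capitals (DKC1, WDR12, NOP2, HEATR1), and the mouse form (Dkc1) is used below. The list holds 27 factors of the small ribosomal subunit, 20 of the large subunit, 8 proteins of small nucleolar ribonucleoproteins (snoRNPs) and 3 nucleolar proteins with several roles.

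The cells were wild-type MEFs that had been infected with a guide RNA. In the first group the guide, called sg10 in the labels, was directed at the p53 response element of Pvt1, a long noncoding RNA gene that neighbours Myc. In the other the guide, called sgtom, had no target and served as control. Both groups were grown in 0.5 µM doxorubicin, a drug that damages DNA, for 24 h, with 3 biological replicates each. The series also holds 6 untreated libraries of the same cells (12 in all), which were not analysed here, so no value below describes an effect of doxorubicin. The labels call the sg10 cells p53RE mutant but state neither how much of the culture carried an edit nor the age, sex or embryo of origin of the cells.

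Ribosome assembly starts on the nascent ribosomal RNA. UTP complexes and the U3 snoRNP fold its small-subunit portion into the small-subunit processome, while a separate series of proteins and helicases builds the precursor of the large subunit. Box C/D snoRNPs direct 2′-O-methylation of the RNA and box H/ACA snoRNPs direct its pseudouridylation. Many genes of this machinery are known targets of the transcription factor MYC, which binds the E-box sequence CACGTG together with its partner MAX.

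The 6 libraries held between 50091418 and 66132317 reads in genes. A member had between 490 and 36139 reads per library. Libraries with equal replicate numbers deviated together from their group means (correlations of 0.87, 0.74 and 0.82 over 14440 genes, against at most 0.20 for other combinations), so the replicate numbers pair the libraries. Values are therefore given in the order of replicates 1, 2 and 3, and fits with the replicate number as a block stand beside those without it. The 10 fibroblast markers (collagens, Vim, Fn1, Thy1 and platelet-derived growth factor receptors) were all listed. They summed to 39072, 39587 and 40326 CPM with the Pvt1 guide and to 40786, 40392 and 40816 CPM with the control guide. This sum was lower with the Pvt1 guide in each pair (ratios of 0.958, 0.980 and 0.988) and the groups did not overlap. The single markers were less uniform than their sum. Of the 10 markers, 5, 6 and 1 were higher in the pairs. In 3 of 3 pairs 0 were higher and 1 was lower. The part of these markers in the values of the members was not tested.

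Pvt1, the gene whose element was targeted, had 8.04, 5.93 and 5.40 CPM with the Pvt1 guide, against 16.4, 11.7 and 12.1 CPM with the control guide. Its log2 fold change was −0.999 (SE 0.19). Myc had 43.5, 48.6 and 53.8 CPM with the Pvt1 guide, against 28.7, 27.0 and 35.6 CPM with the control guide, a log2 fold change of 0.67 (SE 0.13). The groups did not overlap for either gene. Neither passed the threshold (an adjusted p of at most 0.05 over all 14440 genes) in limma without the block (adjusted p = 1.0 for both). With the replicate block both passed (adjusted p = 1.40e-04 for Pvt1 and 5.49e-04 for Myc), and limma without a variance trend lost both of these calls (adjusted p = 0.249 and 0.835). All fold changes are differences of log2(CPM + 0.5), the Pvt1 guide minus the control guide.

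The assembly factors lay slightly but broadly higher with the Pvt1 guide. Of the 58 genes, 53 had a log2 fold change above 0, where 49.7% of all genes tested did, and the count was 52 after median centring, after quantile normalization and in the count-based fits. The median log2 fold change of the members was 0.07, a ratio of 1.05, and single members ranged from −0.09 to 0.27. The median over all genes was 0.00. Within the 3 replicate pairs the median of the members was 0.08, 0.07 and 0.10, with 47, 45 and 53 members higher. Summed over the list, the Pvt1-guide libraries had 3627, 3712 and 3908 CPM and the control libraries 3462, 3583 and 3685 CPM. Each Pvt1-guide library was thus above its own control partner, while the ranges of the groups overlapped. The direction of the list was already known from an earlier look at a shorter list with shared genes, so it is no independent support for it.

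**Figure D1:**
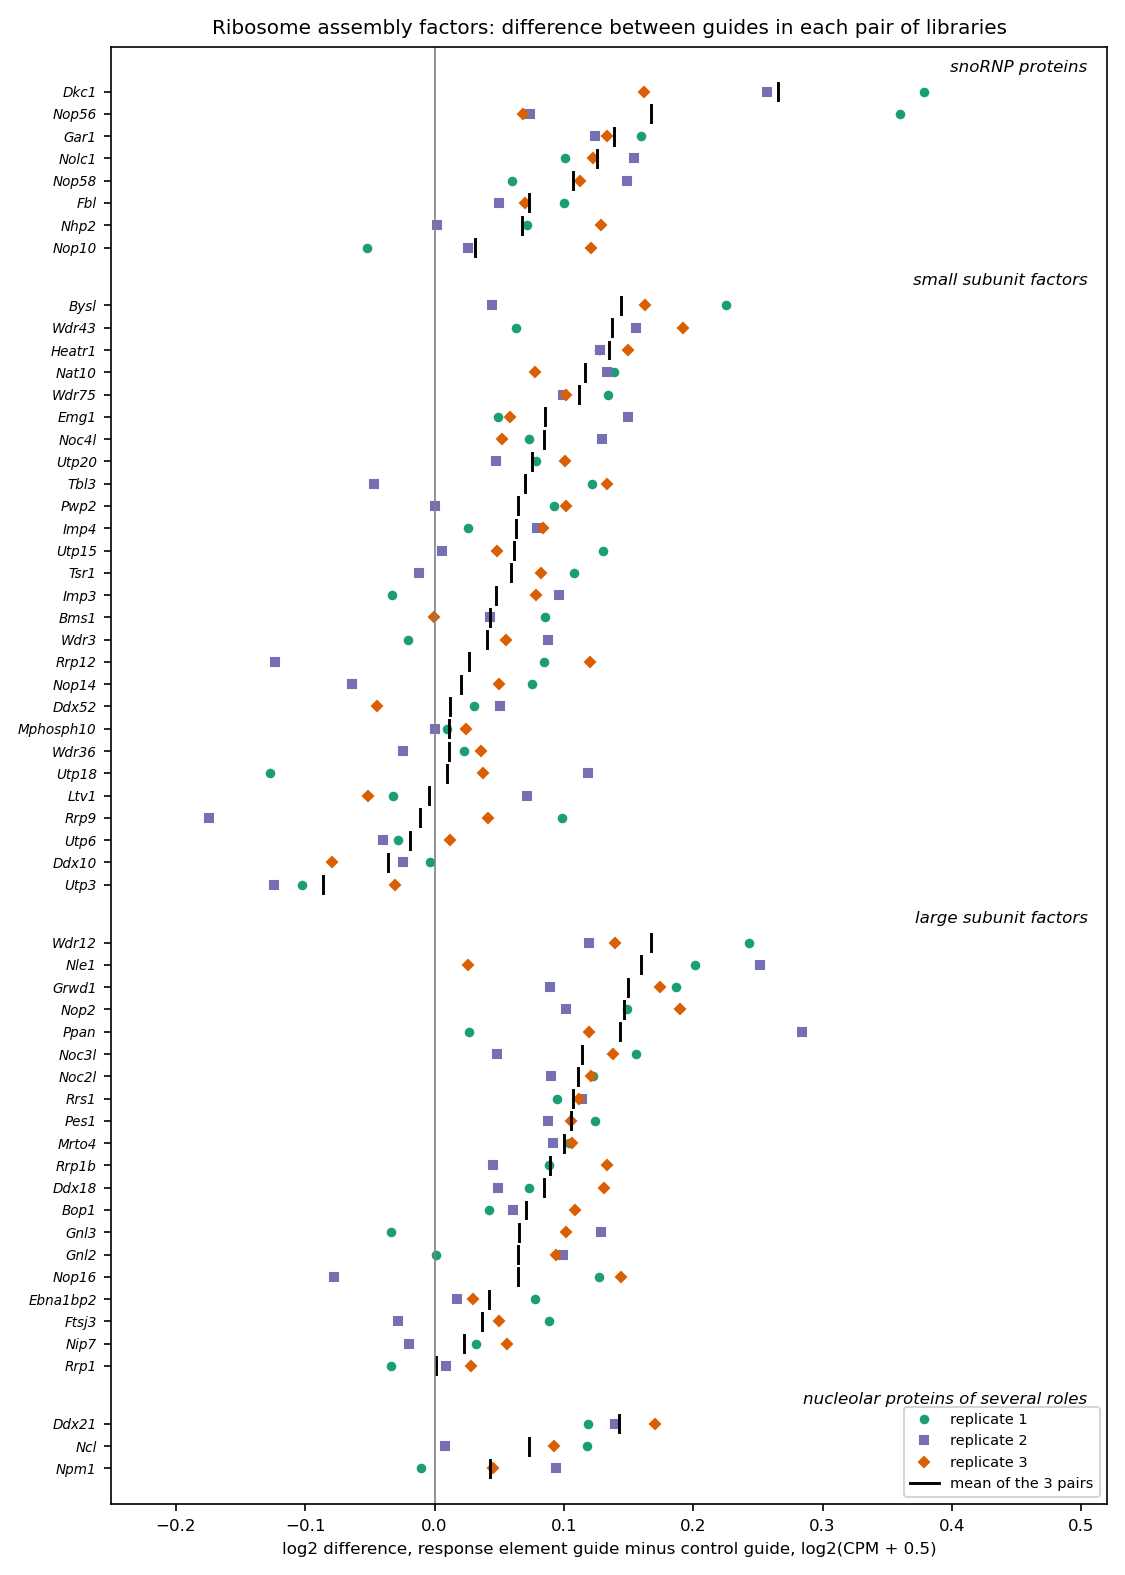
Log2 difference in CPM between the Pvt1-guide and the control-guide library (x axis, log2 of CPM + 0.5) for each of the 58 members (rows, grouped by role), with a symbol for each of the 3 replicate pairs and a bar for their mean. Most symbols lie right of 0, and 35 members have all 3 on that side.

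No member passed the threshold. limma called 0 of the 58 without the block, where 0% of all genes were called, and 0 with it, where 0.0346% were; the lowest adjusted p of a member was 1.0 and 0.538. edgeR without and with the block and DESeq2, run on reads recovered from the CPM, also called 0 members (0%, 0.0346% and 0.00693% of all genes). At an unadjusted p under 0.05, 2 members were higher without the block (background 0.229%) and 0 lower (background 0.118%). With the block 22 were higher (background 3.32%) and 1 lower (background 3.37%). This blocked count of 23 was 13 without replicate 1, 26 without replicate 2, 7 without replicate 3, and 13 in limma without a variance trend. Without replicate 2, 4 members passed the adjusted threshold in the blocked fit, where 156 of the 14087 genes tested there did (1.11%), namely Nop2 (adjusted p = 0.0174), Bysl (0.0338), Wdr12 (0.0411) and Ddx21 (0.0416).

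Counted pair by pair, 35 members were higher in 3 of 3 pairs and 2 were lower in 3 of 3, where each direction held 14.4% of all genes. The groups did not overlap for 12 members, all higher (background 2.15% higher and 1.47% lower). These 12 were the large-subunit factors Wdr12, Nle1, Noc3l, Noc2l, Ddx18 and Mrto4, the small-subunit factors Imp4 and Noc4l, and the snoRNP proteins Dkc1, Gar1, Nolc1 and Fbl. The differences are of the size of the error of a single gene: the median SE of a member's log2 fold change was 0.067 without the block and 0.041 with it.

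**Figure D2:**
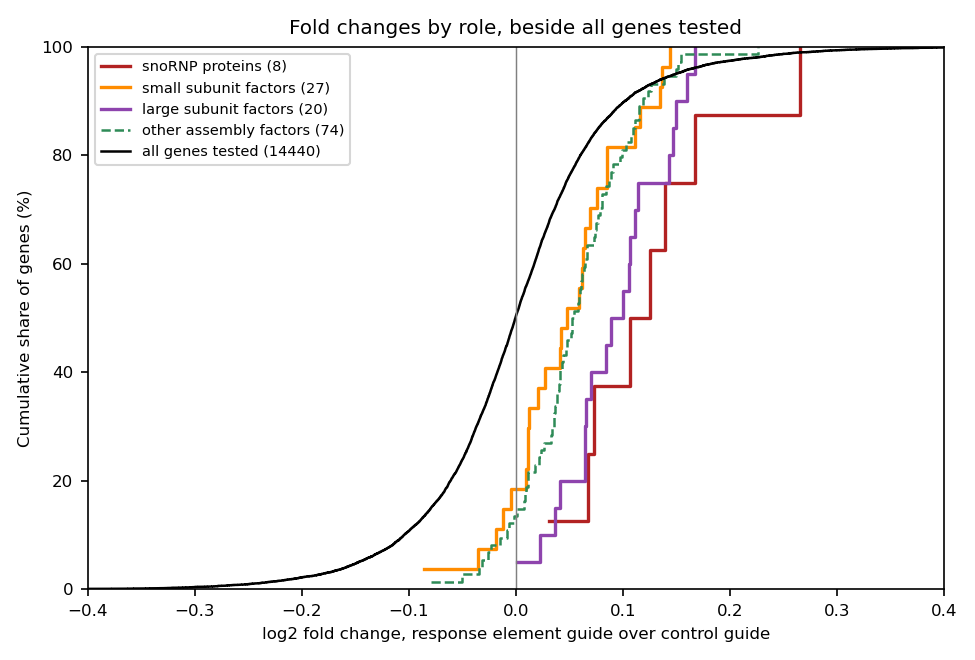
Cumulative share of genes (y axis) at or below each log2 fold change, Pvt1 guide minus control guide (x axis), for the small-subunit factors, the large-subunit factors and the snoRNP proteins, the 74 other assembly factors and all 14440 genes tested. Over most of its length each curve of assembly factors stands right of the curve of all genes, which passes 0 near its middle and has longer tails on both sides.

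Sorted by role, the shift was smallest in the small-subunit factors. Their median log2 fold change was 0.05 (27 genes, 22 above 0), against 0.09 in the large-subunit factors (20 of 20 above 0) and 0.12 in the snoRNP proteins (8 of 8 above 0). Rrp9, a protein of the U3 snoRNP with a log2 fold change of −0.01, was counted with the small-subunit factors. The counts of the small-subunit and snoRNP groups depend on that placement. The medians in the pairs were 0.07, 0.04 and 0.06 for the small subunit, 0.09, 0.09 and 0.11 for the large subunit and 0.10, 0.10 and 0.12 for the snoRNP proteins. Of the small-subunit factors 11 were higher in 3 of 3 pairs, as were 15 of the large-subunit factors and 7 of the snoRNP proteins. The differences between the role groups were not tested. The snoRNP median moved to 0.07, below that of the large subunit, without control replicate 1, and was 0.15 without Pvt1-guide replicate 1. It was also below that of the large subunit without Pvt1-guide replicate 2, where both medians were 0.10 when rounded. The 3 proteins of several roles had a median of 0.07. This median fell below that of the small subunit without Pvt1-guide replicate 3 (0.01 against 0.03) and without control replicate 1 (0.02 against 0.04).

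Some promoters of the members hold the E-box, and a few are shown as examples, picked without a fixed rule. In RefSeq's promoter table (build GRCm38.p6, 250 bases before to 50 after the start) 49 members were matched. A gene was counted where any of its promoters held the motif. CACGTG, which reads the same on both strands, was found in 10 of the matched members (20.4%). It was found in 11.2% of the 11529 measured genes matched and in 8.09% of all 27025 genes of the promoter table. It was in 6 of 23 small-subunit factors, 4 of 17 large-subunit factors, 0 of 7 snoRNP genes, 0 of 2 genes of several roles and 13 of 59 other assembly factors. The windows below read 5′ to 3′ on the strand of the gene, with the motif in capitals.
Nop2, chr6:125131811-125131840, plus strand: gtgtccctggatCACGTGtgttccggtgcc
Wdr43, chr17:71616220-71616249, plus strand: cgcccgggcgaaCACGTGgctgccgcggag
Pes1, chr11:3963965-3963994, plus strand: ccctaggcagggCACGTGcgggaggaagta
Nle1, chr11:82908355-82908384, minus strand: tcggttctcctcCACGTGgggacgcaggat
Ltv1, chr10:13193092-13193121, minus strand: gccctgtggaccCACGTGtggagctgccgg
The first 4 genes had log2 fold changes of 0.15, 0.14, 0.11 and 0.16, while Ltv1 with the same motif stood at −0.00. Members with the motif that are not shown were Grwd1 (0.15), Utp20 (0.08), Imp4 (0.06), Tsr1 (0.06) and Utp18 (0.01). Most of the shown examples thus lie at the higher end. The 10 members with the motif had a median log2 fold change of 0.09 and the 39 without it 0.07. A match is a description of the letters and does not show binding, and the fold changes with and without the motif were not tested against each other.

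Among the snoRNP proteins the box H/ACA core had the member with the highest log2 fold change of all 58. Dkc1 (X:75095854-75109777, plus strand, GENCODE M21 on the mm10 assembly) encodes dyskerin, the pseudouridine synthase of the particle. It had 12.2, 12.0 and 12.6 CPM with the Pvt1 guide, against 9.26, 9.96 and 11.3 CPM with the control guide. Every Pvt1-guide library was above every control library, with log2 differences of 0.38, 0.26 and 0.16 in the pairs. The log2 fold change was 0.27 (SE 0.093), with an unadjusted p of 0.0264 and an adjusted p of 1.0 without the block and of 0.00237 and 0.57 with it. Gar1 (3:129824912-129831396, minus strand), another protein of the H/ACA core, had 12.8, 13.1 and 12.5 CPM, against 11.4, 12.0 and 11.4 CPM with the control guide. Its groups did not overlap and its log2 fold change was 0.14 (SE 0.069). Nhp2 and Nop10, the remaining H/ACA proteins, stood at 0.07 and 0.03, and Nop10 was lower with the Pvt1 guide in the first pair.

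The box C/D core moved within the same narrow range. Nop58 (1:59684971-59719044, plus strand), a scaffold protein of C/D particles, had 57.3, 65.6 and 68.7 CPM with the Pvt1 guide, against 55.0, 59.1 and 63.5 CPM with the control guide (log2 fold change 0.11, SE 0.090). The groups overlapped, and each Pvt1-guide library exceeded its own partner. Nop56, its partner in the particle, stood at 0.17 and Fbl, the methyltransferase fibrillarin, at 0.07, so that 3 of 3 core proteins were higher in 3 of 3 pairs. For Nop56 the first pair differed by 0.36 and the other pairs by 0.07 each. Nolc1 (19:46075863-46085530, plus strand), a chaperone of snoRNPs also known as Nopp140, had 58.8, 63.3 and 62.8 CPM with the Pvt1 guide, against 54.8, 56.8 and 57.6 CPM with the control guide. These groups did not overlap, and its log2 fold change was 0.13 (SE 0.055, unadjusted p = 0.0607 without the block and 0.00463 with it).

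Per kilobase of the principal transcript, the RNA levels of the core genes of each particle differed more from each other than between guides. In the H/ACA core the level was 43.5 CPM per kb for Nhp2 with the Pvt1 guide and 41.5 with the control guide, 24.1 and 23.6 for Nop10, 10.1 and 9.13 for Gar1, and 4.38 and 3.62 for Dkc1. In the C/D core it was 41.9 and 39.8 CPM per kb for Fbl, 37.3 and 34.6 for Nop58 and 5.96 and 5.31 for Nop56. The level depends on which transcript is taken as principal, and no other choice was tried. Exons of Dkc1, Nop56 and Nhp2 overlap those of another measured gene on the opposite strand, which may alter their counts.

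**Figure D3:**
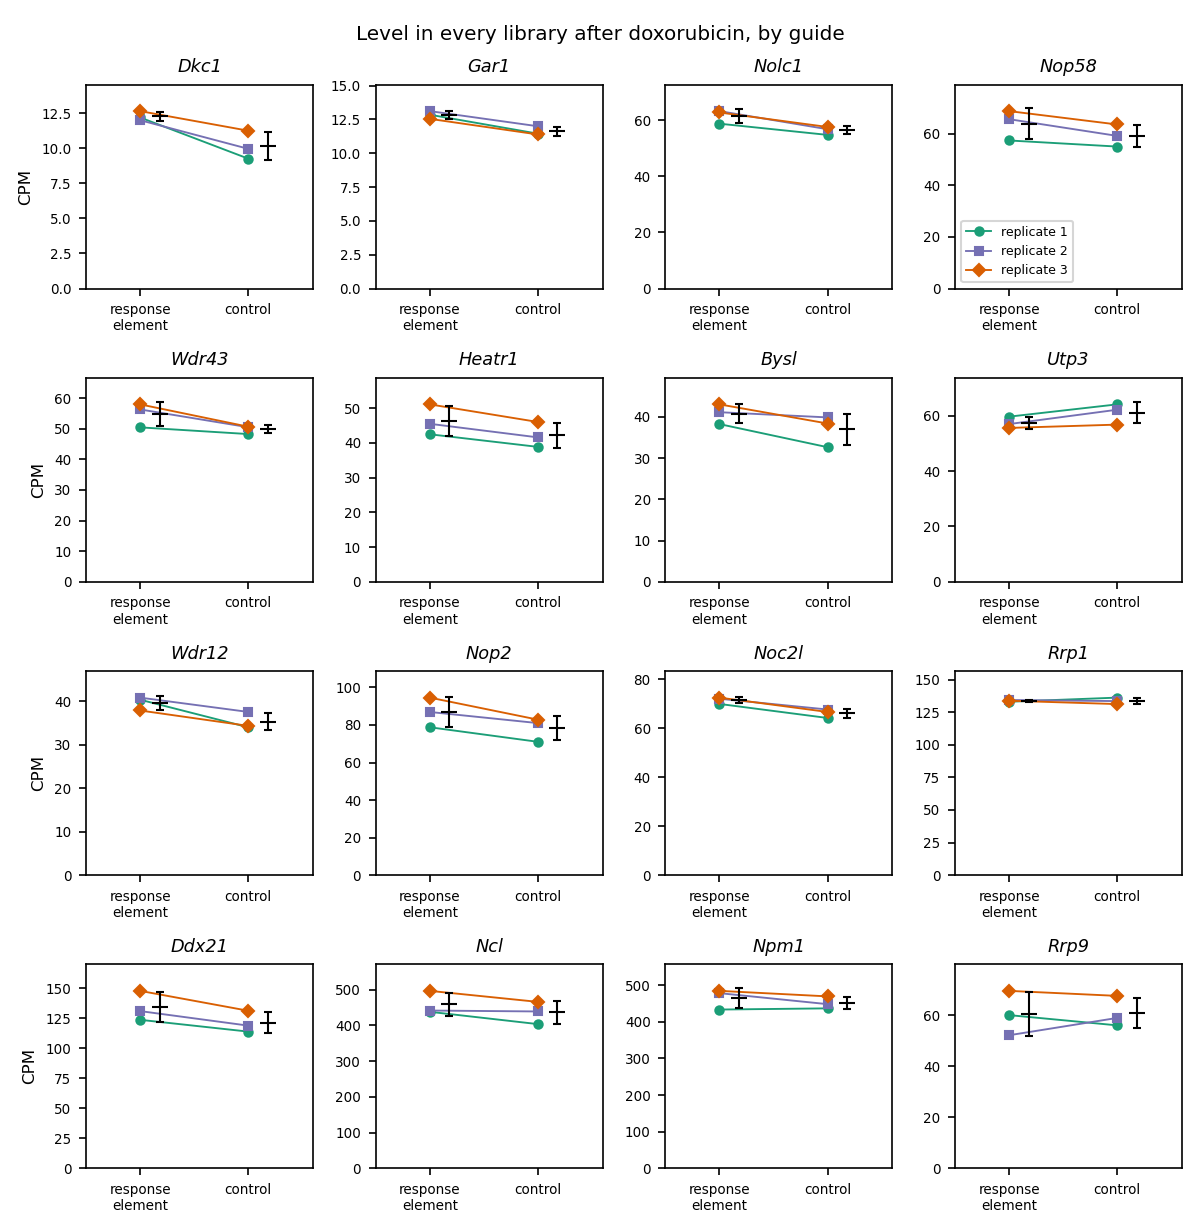
CPM (y axis, from 0) of 16 members in each library with the Pvt1 guide (left, marked response element) and the control guide (right), with a line joining libraries of equal replicate number and a bar for the mean ± SD (n = 3). Dkc1, Gar1, Nolc1, Wdr12 and Noc2l have groups that do not overlap, while for Nop2, Heatr1 and Ddx21 the lines run nearly parallel and the groups overlap.

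The subcomplexes of the small subunit had different medians. The 4 members of the UTP-A complex, which binds the nascent transcript first, were all higher in 3 of 3 pairs (median log2 fold change 0.12). The 6 of the UTP-B complex had a median of 0.03, and 0 were higher in 3 of 3 pairs. The 3 of the MPP10 complex (Mphosph10, Imp3, Imp4) had a median of 0.05. These subcomplex differences were not tested.

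Wdr43 (17:71615895-71659031, plus strand), the UTP-A subunit known as UTP5 in yeast, had 50.4, 56.3 and 57.9 CPM with the Pvt1 guide, against 48.3, 50.5 and 50.7 CPM with the control guide. The groups overlapped in a narrow zone only, and the log2 fold change was 0.14 (SE 0.069). Heatr1 (13:12395027-12440289, plus strand), the UTP-A subunit known as UTP10 in yeast, had 42.5, 45.5 and 51.1 CPM, against 38.9, 41.6 and 46.0 CPM with the control guide. The groups overlapped, while the pair differences of 0.13, 0.13 and 0.15 were close to one another. Heatr1 had an SE of 0.095 without the block and 0.039 with it. Bysl (17:47599331-47611492, minus strand) encodes bystin, which acts late in the maturation of the small subunit. It had 38.3, 41.2 and 43.1 CPM, against 32.7, 39.9 and 38.4 CPM with the control guide, and its pair differences of 0.23, 0.04 and 0.16 were uneven.

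Other small-subunit members were nearer to 0. Noc4l (5:110648418-110653417, minus strand), whose yeast counterpart works with Nop14, had 30.8, 30.5 and 31.5 CPM with the Pvt1 guide, against 29.2, 27.8 and 30.3 CPM with the control guide. Its groups did not overlap, with a log2 fold change of 0.08 (SE 0.059). Utp20 (10:88746607-88826804, minus strand), a very large processome scaffold and the small-subunit member with the highest CPM, had 131, 124 and 137 CPM, against 124, 120 and 128 CPM with the control guide. Its groups overlapped (log2 fold change 0.08, SE 0.062). Wdr36, a UTP-B subunit, had 69.6, 67.1 and 72.2 CPM, against 68.5, 68.3 and 70.4 CPM with the control guide, a log2 fold change of 0.01 (SE 0.053). Nat10, which acetylates small-subunit RNA, and Wdr75 of UTP-A stood at 0.12 and 0.11.

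All 5 members below 0 were grouped as small-subunit factors, Rrp9 of the U3 snoRNP among them. Utp3 (5:88554462-88556090, plus strand), known as Sas10 in yeast, had 59.7, 57.0 and 55.6 CPM with the Pvt1 guide, against 64.1, 62.2 and 56.8 CPM with the control guide. It was lower in each pair and the groups overlapped (log2 fold change −0.09, SE 0.066, unadjusted p = 0.236 without the block and 0.0408 with it). Ddx10, an RNA helicase, had 21.6, 22.6 and 23.5 CPM, against 21.7, 23.0 and 24.9 CPM with the control guide, a log2 fold change of −0.04 (SE 0.075). It was the other member lower in 3 of 3 pairs, with a difference of −0.00 in the first.

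The remaining members below 0 changed sign between pairs. Utp6, a UTP-B subunit, had 47.3, 41.9 and 44.7 CPM with the Pvt1 guide, against 48.3, 43.1 and 44.3 CPM with the control guide (log2 fold change −0.02, SE 0.072). Rrp9, a protein of the U3 snoRNP, had 60.0, 52.2 and 69.5 CPM, against 56.0, 58.9 and 67.6 CPM with the control guide (−0.01, SE 0.12). Its second pair was lower by 0.17 on the log2 scale with the Pvt1 guide and its other pairs were higher. Ltv1, a factor of late small-subunit export and maturation, had 28.5, 31.0 and 29.8 CPM, against 29.2, 29.5 and 30.9 CPM with the control guide (−0.00, SE 0.061). The sign of Ddx10, Utp6, Rrp9 and Ltv1 turned with single libraries left out.

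Among the large-subunit factors the PeBoW complex, formed by Pes1, Bop1 and Wdr12, was higher in 3 of 3 pairs for each of its proteins (log2 fold changes 0.11, 0.07 and 0.17). Wdr12 (1:60069785-60098645, minus strand) had 40.3, 40.8 and 37.8 CPM with the Pvt1 guide, against 34.0, 37.5 and 34.3 CPM with the control guide. The groups did not overlap, and the log2 fold change had an SE of 0.066 (unadjusted p = 0.041 without the block and 0.00245 with it, adjusted p = 1.0 and 0.57). For Bop1 the replicates differed more than the guides did, with 77.9, 90.6 and 100.7 CPM with the Pvt1 guide and 75.7, 86.8 and 93.3 CPM with the control guide. Per kilobase, Bop1 stood at 36.0 CPM with the Pvt1 guide and at 34.2 with the control guide.

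Nop2 (6:125131909-125144753, plus strand), a methyltransferase of large-subunit RNA, had 78.8, 86.9 and 94.6 CPM with the Pvt1 guide, against 71.0, 81.0 and 82.9 CPM with the control guide. The groups overlapped, while the pair differences were 0.15, 0.10 and 0.19, and the SE of its log2 fold change of 0.15 was 0.093 without the block and 0.035 with it. Noc2l (4:156236010-156247616, plus strand), whose yeast counterpart accompanies large-subunit precursors, had 69.9, 72.0 and 72.4 CPM, against 64.1, 67.6 and 66.6 CPM with the control guide. Its groups did not overlap (log2 fold change 0.11, SE 0.050). Noc3l, another large-subunit factor, had 33.1, 31.1 and 32.3 CPM, against 29.6, 30.0 and 29.4 CPM with the control guide. Its groups did not overlap either (log2 fold change 0.11, SE 0.055). Other large-subunit members with log2 fold changes above 0.1 were Nle1 (0.16), Grwd1 (0.15), Ppan (0.14), Rrs1 (0.11) and Mrto4 (0.10), all of which act on precursors of the large subunit.

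The large-subunit members with the highest CPM, Rrp1 and Ftsj3, lay near 0. Rrp1, a factor of large-subunit RNA processing in yeast, had 133, 135 and 134 CPM with the Pvt1 guide, against 136, 134 and 131 CPM with the control guide. Its log2 fold change of 0.00 (SE 0.049) turned negative after median centring, after quantile normalization and in the count-based fits. Ftsj3, a methyltransferase-like factor of ribosomal RNA processing, had 124, 115 and 123 CPM, against 116, 118 and 119 CPM with the control guide (0.04, SE 0.053), and its second pair was lower with the Pvt1 guide. Rrp1b, a paralogue of Rrp1, was the member with the lowest level per kilobase, at 3.10 CPM with the Pvt1 guide and 2.91 with the control guide, where Rrp1 had 67.5 and 67.4.

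The 3 proteins with several roles were among the most abundant members. Ddx21 (10:62580251-62602281, minus strand), a helicase that binds ribosomal RNA and snoRNAs, had 124, 131 and 148 CPM with the Pvt1 guide, against 114, 119 and 131 CPM with the control guide. It had the smallest blocked p of the list (unadjusted p = 9.19e-04, adjusted p = 0.538), with a log2 fold change of 0.14 and an SE of 0.090 without and 0.033 with the block. Ncl (1:86344719-86359400, minus strand), encoding nucleolin, had 438, 442 and 497 CPM, against 404, 439 and 466 CPM with the control guide (0.07, SE 0.086). Npm1 (11:33152287-33163206, minus strand), encoding the nucleolar histone and ribosome chaperone nucleophosmin, had 434, 478 and 485 CPM, against 437, 448 and 470 CPM with the control guide (0.04, SE 0.072). The groups overlapped for each of these genes, and the first pair of Npm1 was slightly lower with the Pvt1 guide. Without these genes the median of the other 55 members was 0.07 as well.

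The members also varied with the replicate. The replicate number had an effect in 19 of the 58 members (32.8%, limma F test with adjusted p of at most 0.05), where 48.6% of all genes had one. All 3 proteins of several roles were among these (adjusted p = 0.00153 for Ddx21, 0.00662 for Ncl and 0.0466 for Npm1), as were 10 small-subunit factors, 4 large-subunit factors and 2 snoRNP proteins. Of the 58 members, 31 had their highest level in Pvt1-guide replicate 3 and 29 their lowest in control replicate 1. Without the first of these libraries 47 members were above 0, with a median of 0.05. Without the second 48 were above 0, with a median of 0.06.

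**Figure D4:**
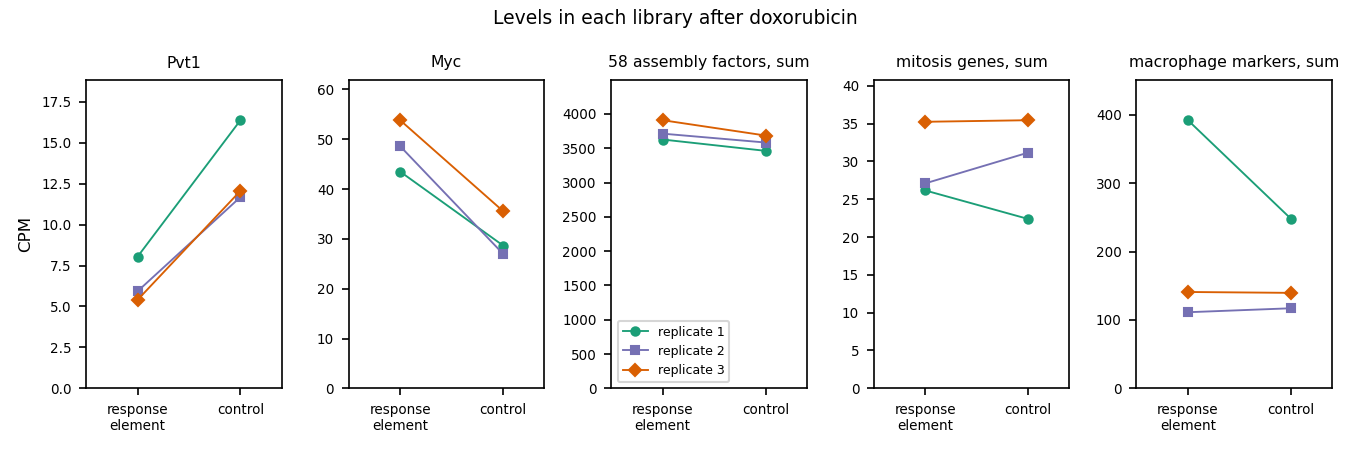
CPM (y axis) of Pvt1, Myc, the sum over the 58 members, the sum over 10 mitosis genes and the sum over 14 macrophage markers in each library, with the Pvt1 guide left of the control guide and lines joining replicate pairs. Pvt1 is lower and Myc higher in each Pvt1-guide library, the sum of the members is higher in each pair, and the macrophage sum is highest in replicate 1 of both guides.

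Other values moved with the replicates. The 14 of 16 macrophage markers listed summed to 392, 111 and 141 CPM with the Pvt1 guide. With the control guide they summed to 248, 117 and 140 CPM. Of the 14 markers, 13 had a log2 fold change above 0. Within the pairs 14, 4 and 5 of these markers were higher with the Pvt1 guide, with medians of 0.64, −0.04 and −0.02. Without both libraries of replicate 1, 52 members were above 0 in the blocked fit and their median was 0.08. The first replicate thus stood apart in these markers. Of markers of other cells, 4 of 6 endothelial ones were listed (Cdh5 and Tie1 were not), with sums from 104 to 151 CPM with the Pvt1 guide and from 105 to 153 CPM with the control guide. Epithelial markers (6 of 7 listed, Krt8 not) summed to between 54.8 and 99.99 CPM with the Pvt1 guide and between 76.4 and 92.1 CPM with the control guide. Muscle markers (3 of 6 listed, Myod1, Myog and Actc1 not) summed to between 30.6 and 44.6 CPM with the Pvt1 guide and between 29.5 and 48.7 CPM with the control guide. All of these sums overlapped between the guides. The 10 mitosis genes, a measure of dividing cells, summed to 26.2, 27.1 and 35.2 CPM with the Pvt1 guide and to 22.4, 31.2 and 35.4 CPM with the control guide, with 3 of 10 above 0. The part of cell makeup and division in the values of the members was not tested, and in bulk RNA fewer cells of a type and less RNA per cell cannot be told apart.

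Ribosome assembly factors outside the 58 were also mostly above 0. A list of 80 symbols of ribosome assembly factors, some of them alternative names of the same gene, had 74 genes in the table and tested. Of these 64 were above 0 and 10 below, with a median log2 fold change of 0.05 and pair medians of 0.07, 0.05 and 0.05. In 3 of 3 pairs 38 were higher and 1 lower, and the groups did not overlap for 12, all higher (background 14.4% for each direction in 3 of 3 pairs, and 2.15% higher and 1.47% lower without overlap). In the blocked fit 9 were higher at an unadjusted p under 0.05 (background 3.32%), and 0 passed the adjusted threshold in either fit. The difference between the lists was not tested.

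Some members are themselves hosts of snoRNA genes. In GENCODE M21, 8 of the 58 (13.8%) hold a snoRNA gene on their own strand, 23 such genes in all, against 1.72% of the 13993 measured protein-coding genes. Nop56 holds 5, Nop58 4, Wdr43, Gnl3 and Ncl 3 each, Tsr1 and Ppan 2 each and Dkc1 1. The libraries were made from polyadenylated RNA and the values given are those of the host genes. The snoRNA genes Snord69 and Snord19 have rows of their own in the table and overlap exons of Gnl3 on the same strand. Reads there may be mixed or left out as ambiguous. The 8 hosts had a median log2 fold change of 0.12 (8 of 8 above 0), and the 50 other members 0.07 (45 above 0). Nop56, Nop58 and Dkc1 among the hosts are also snoRNP proteins, so this grouping overlaps that by role.

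Exons of 15 members overlap those of another measured gene, for example Dkc1 with Mpp1, Wdr12 with Carf and Bysl with Ccnd3, each on the opposite strand. The library kit keeps strand, but the strand setting of the counting is not given in the sources used here. Reads over shared exons may thus be mixed or left out as ambiguous. The annotation names 2 pseudogenes after Mrto4, and how reads that match several copies were counted is not given either. The 15 had a median log2 fold change of 0.09 and the other 43 a median of 0.06. In the authors' deposited table of the same comparison 53 of the 58 members had a log2 fold change above 0, with a median of 0.07, a lowest p of 0.181 and a false discovery rate of 1 for each.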

How the data were processed

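Polyadenylated RNA was sequenced after TruSeq library preparation that keeps strand, per the labels' protocols. The submitters' processing notes name edgeR 3.22.3, HTSeq 0.6.1, StringTie 1.2.4, TopHat2 2.0.14 and mm10, without roles. The deposited values are CPM per gene and library, and the log2 fold change, p-value and false discovery rate are the authors' own, per the file headers. Of 16427 rows, 2 name no gene (no feature, 8.06% to 8.94% of a library, and ambiguous, 0.543% to 1.58%) and were left out. The no-feature share was 8.66%, 8.41% and 8.94% with the Pvt1 guide. With the control guide it was 8.24%, 8.06% and 8.33%, lower in each pair and without overlap. The ambiguous share was 1.58%, 0.926% and 1.16% with the Pvt1 guide. With the control guide it was 0.543%, 0.784% and 1.36%, lower in the first and second pairs and higher in the third. The part of these differences in the values of the members was not tested. A further 6 per-sample columns were not used. GENCODE M21 matched 15867 symbols.

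limma 3.58.1 (R 4.3.3; trend, robust) was fitted to log2(CPM + 0.5) of the 14440 genes that reached 0.5 CPM in 3 or more libraries, with Benjamini-Hochberg adjustment over all of them. Equal replicate numbers deviated together (correlations over 0.1 in each of 3 pairs), so the replicate block was fitted too. Whole reads were recovered from the CPM steps (100% of values within 0.01 reads of a whole number) and tested with edgeR 4.0.16 and DESeq2 1.42.0. The fits were also run on simulated data, but the outcome is not given here and lends no support to the values.

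The members and lists were chosen with earlier results of these data known. Members given with the value in every library were, per role, the 2 with the highest mean CPM, the 3 with the smallest p without and the 2 with the smallest p with the block, and every member below 0; Bop1 and the other members named were picked after their values were seen. Alternatives were other scalings, filters, pseudocounts, tests and libraries left out. P-values measure the spread between replicates, which the series calls biological, and nothing tells whether they came from separate embryos.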

Additional observations from a re-analysis of the deposited data

How the results depend on the processing

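The number of genes past the threshold was 0 in limma without the block, 5 with the replicate block, 5 in blocked edgeR and 1 in DESeq2; with libraries left out it ranged from 0 to 156 (15, 156 and 8 in the blocked fit without replicate 1, 2 and 3). Members past the threshold numbered 0 in each of these fits but the blocked one without replicate 2, a range of 0 to 4. Members at an unadjusted p under 0.05 numbered 2, against 1 in limma without trend, 23 with the replicate block, 20 in blocked edgeR, 13 in the blocked fit without trend, 0 to 3 with single libraries left out and 7 to 26 in the blocked fit with a replicate left out. The median log2 fold change of the members was 0.054 to 0.088 with single libraries left out and 0.062 to 0.089 in the blocked fit with a replicate left out. Pvt1 passed with the block (−0.999), in DESeq2 (−1.05, adjusted p = 0.0276) and in blocked edgeR (−1.06), ranged from −1.16 to −0.85 with single libraries left out, and was −1.01, −1.04 and −0.95 in the blocked fit without replicate 1, 2 and 3. Myc passed with the block (0.67) and in blocked edgeR (0.68), missed the threshold in DESeq2 (adjusted p = 0.0551), ranged from 0.59 to 0.79 with single libraries left out, and was 0.71, 0.59 and 0.71 in the blocked fit without replicate 1, 2 and 3.

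Of 504 comparisons over 24 named members and 21 alternatives, 479 kept direction and side of the threshold, 21 changed sign in 6 members and 4 became calls. Rrp1 changed sign after median centring (−0.00053), quantile normalization (−0.0018), in edgeR (−0.0027), in DESeq2 (−0.0017) and in blocked edgeR (−0.0025). With single libraries left out the log2 fold change ranged from −0.012 to 0.015 for Rrp1, −0.082 to 0.015 for Ddx10, −0.034 to 0.026 for Ltv1, −0.12 to 0.090 for Rrp9, −0.061 to 0.028 for Utp6 and −0.015 to 0.037 for Wdr36. In the blocked fit with a replicate left out, Rrp1 ranged from −0.012 to 0.018 (−0.0030 without replicate 2), Ltv1 from −0.042 to 0.020 (0.010 without replicate 1), Rrp9 from −0.067 to 0.070 and Wdr36 from −0.00072 to 0.029. The causes were not tested. With 3 pairs, shifts in single members are near the error of the fit. Counting error is a part of that error and is largest for members with few reads (from 490 per library). For Dkc1 the counting error of the difference in a single pair was 0.080, 0.082 and 0.071 on the log2 scale. Its blocked SE of 0.069 is that of the mean over the 3 pairs, so these values are not directly comparable.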
